A study of Mus musculus and Homo sapiens with 9 samples.

Results

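The BCL2 family of apoptosis regulators was examined in RNA-seq libraries of a T cell leukemia line and of mouse T cells with reduced or absent IRF2BP2, a transcriptional co-regulator. Its members here were 10 genes chosen by symbol: BCL2, BCL2L1, MCL1, BAX, BAK1, BCL2L11, BBC3, PMAIP1, BID and BAD. All 10 were found among the 56105 annotated rows of the human table, and their mouse counterparts were found among the 42462 annotated rows of the mouse table. All 10 also passed the filter on low counts in each table, where 15819 human and 15350 mouse genes were tested.

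The human libraries came from J.gamma1, a line derived from the T cell acute lymphoblastic leukemia line Jurkat, carrying lentiviral shRNA and selected with puromycin. There were 2 libraries with a control hairpin (sh-NC) and 2 with a hairpin against IRF2BP2 (sh-IRF2BP2), and the sources do not name which hairpin was used. The mouse libraries, 2 knockout (Vav-iCre+/-;Irf2bp2fl/fl) and 3 control, came from magnetically sorted splenic CD3+ T cells. The labels call the controls wild type, and the paper describes them as floxed mice without Cre. Whether each library came from a separate mouse is not stated in the labels. Vav-iCre is active throughout the blood lineage, so the gene was deleted in other blood cells as well as in T cells. Bulk RNA was measured, so fewer cells of a type and less RNA per cell cannot be told apart.

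Proteins of this family control the release of cytochrome c from mitochondria, the step that commits a cell to intrinsic apoptosis. BAX and BAK1 form pores in the outer mitochondrial membrane. BCL2, BCL2L1 (BCL-XL) and MCL1 hold them in check and keep cells alive. The BH3-only proteins BCL2L11 (BIM), BBC3 (PUMA), PMAIP1 (NOXA), BID and BAD bind the survival proteins or the pore formers and promote death. Normal T cells depend on MCL1 and BCL2, and T cell leukemias differ in which survival protein they need.

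Total counts per library ran from 16668577, in control replicate 3 of the mouse, to 37177523. IRF2BP2 had 5294 and 6166 counts with sh-NC and 2299 and 2766 counts with sh-IRF2BP2, and its fitted level under knockdown was 42.9% of sh-NC. Irf2bp2 had 4145, 4594 and 1915 counts in the control mice and 0 and 0 in the knockout mice, so it was at least 1415-fold lower against a floor of 3 counts per library. T cell markers were present in each table, with all 14 tested. In J.gamma1, CD8A averaged 2.29 CPM (counts scaled to library size) and CD8B 1.59 CPM in sh-NC, whereas CD3E averaged 442 CPM. CD4 and CD2 were also low there, at 6.4 and 4.8 CPM. By the test described below, 3 of the 14 markers were higher and 1 lower with sh-IRF2BP2, at an adjusted p under 0.05.

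In J.gamma1 cells, 3 of the 10 members fell with IRF2BP2 knockdown and 0 rose. The 3 were the survival genes BCL2 and MCL1 and the BH3-only gene PMAIP1. A gene was called at an adjusted p under 0.05 in the quasi-likelihood test of edgeR, where the Benjamini-Hochberg method covered every gene tested. Across all genes, 5.32% were called lower and 5.83% were called higher. At an unadjusted p under 0.05, edgeR gave 0 members higher and 5 lower, and DESeq2 gave 0 higher and 4 lower after adjustment. The median log2 fold change of the 10 members was -0.17, beside 0.01 over all genes. The groups did not overlap for 7 of the 10 members, beside 58.3% of all genes tested. Values below are CPM on library sizes scaled by TMM.

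**Figure D1:**
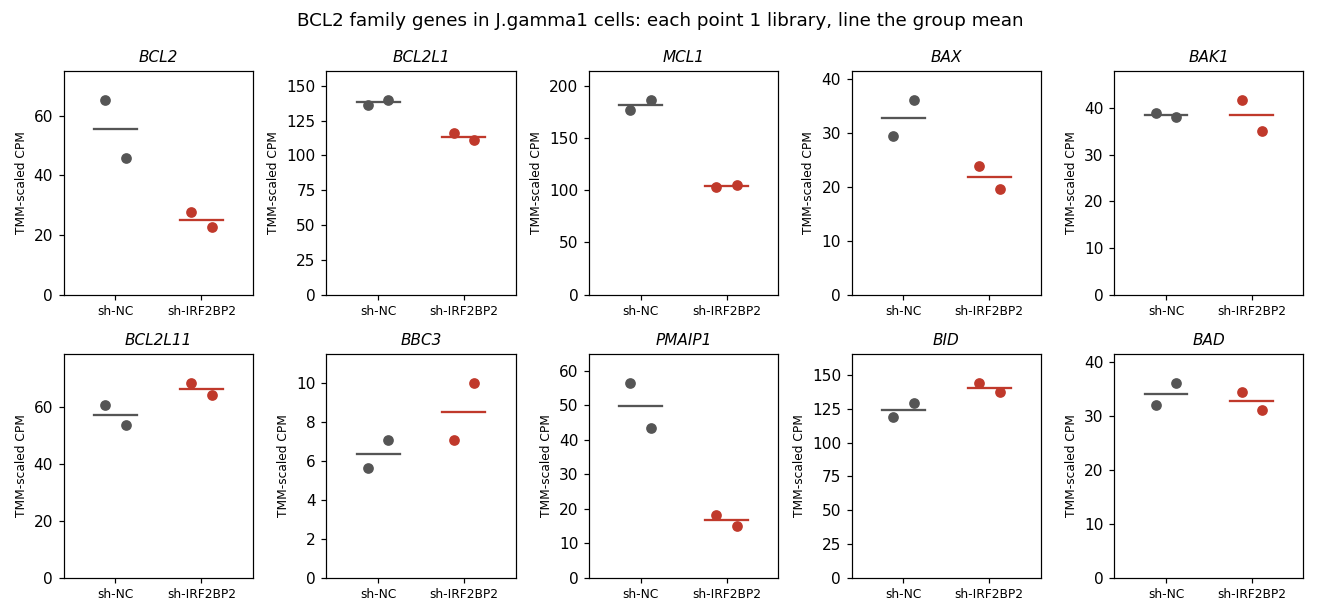
Level of each BCL2 family gene in J.gamma1 cells, in TMM-scaled CPM on axes starting at 0, with a point for each sh-NC (grey) and sh-IRF2BP2 (red) library and a line at the group mean. PMAIP1, BCL2 and MCL1 were lower in the 2 sh-IRF2BP2 libraries, while the groups overlapped for BAK1, BBC3 and BAD.

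Among the survival genes, BCL2 (ENSG00000171791, hg38 chr18:63123346-63320128, minus strand), the founding member of the family, was at 65.3 and 45.8 CPM in sh-NC and at 27.6 and 22.6 CPM in sh-IRF2BP2. The higher of the knockdown libraries lay below the lower of the control libraries, although the control libraries themselves differed. BCL2 fell by 1.14 on the log2 scale (SE 0.19, adjusted p = 0.0111 by edgeR), to 45.2% of sh-NC.

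BCL2L1 (ENSG00000171552, hg38 chr20:31664452-31723989), which encodes BCL-XL, was at 137 and 140 CPM in sh-NC and at 116 and 111 CPM in sh-IRF2BP2. The groups did not overlap, but the log2 fold change of -0.28 (SE 0.11) did not pass the test (adjusted p = 0.151 by edgeR). Of its exon bases, 41.3% are shared with the antisense lncRNA ABALON, and since the use of strand in counting was not stated, reads of the 2 genes cannot be told apart there.

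MCL1 (ENSG00000143384, hg38 chr1:150560895-150579738, minus strand), a short-lived survival protein, had the tightest replicates of the 3 fallen members, at 177 and 186 CPM in sh-NC and 103 and 105 CPM in sh-IRF2BP2. It fell by 0.80 on the log2 scale (SE 0.12, adjusted p = 0.00588 by edgeR), to 57.2% of sh-NC. BCL2, MCL1 and PMAIP1 stayed called in every alternative run on the J.gamma1 table. With each library left out in turn, the log2 fold change lay between -1.38 and -0.87 for BCL2, between -0.84 and -0.77 for MCL1, and between -1.76 and -1.39 for PMAIP1.

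The MCL1 promoter is shown because the study relates IRF2BP2 to ETS and RUNX factors and MCL1 was the sole member with a match to either core motif in the 250 bases before the start of its canonical transcript, at 150579610. The stretch below is hg38 chr1:150579611-150579860, read on the minus strand, with capitals marking the ETS core CCGGAA. The motifs were searched on both strands.
MCL1 promoter: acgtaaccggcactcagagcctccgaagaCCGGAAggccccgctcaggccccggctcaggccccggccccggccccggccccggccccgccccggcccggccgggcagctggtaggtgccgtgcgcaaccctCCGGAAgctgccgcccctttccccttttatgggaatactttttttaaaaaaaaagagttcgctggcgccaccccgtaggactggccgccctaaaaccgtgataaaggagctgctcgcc
The ETS core occurred in 2 places here and in 19.4% of 20046 promoters of the same length, each taken before the canonical start. Another annotated MCL1 transcript starts further upstream, at 150579738, so the match at chr1:150579723-150579728 lies inside the annotated gene and the match at chr1:150579826-150579831 lies before it. The RUNX core TGTGGT occurred in 8.9% of those promoters and in 0 of the 10 members. No binding data were analysed here, and a match describes letters and not a bound site.

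The 3' UTR words GGTCTA and GGTCTAA, chosen with earlier results of these data known, were counted in the members, and all 3 fallen members carried GGTCTA. Among all tested genes with an annotated 3' UTR, 84.1% carried none of these words. MCL1 held GGTCTAA in 3 places, PMAIP1 in 1, and BCL2 held only the shorter word, in 1. BCL2L11 and BAK1 also held the shorter word in 1 place each and were not called, and the other 5 members held none. The sites in MCL1 are shown with capitals on the word, in hg38 on the minus strand.
chr1:150576313-150576342: tttcaataattAGGTCTAAgtggagtttta
chr1:150575994-150576023: gttacacacacAGGTCTAAgcctagtatgt
chr1:150574866-150574894: aggaggcaggtGGTCTAAgtgctgactgg
Over all tested genes with an annotated 3' UTR, the median log2 fold change was -0.22 in 205 genes with AGGTCTAA, -0.12 in 435 further genes with GGTCTAA and -0.05 in 1377 further genes with GGTCTA, against 0.01 in 10682 genes with none. The word classes also differed in 3' UTR length, with medians of 3433, 3260, 2976 and 1066 bases in the same order. As the words were chosen with results of these data known, the counts and medians here cannot serve as a test of them. The part of these words in the members' values was not tested.

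The effectors differed in their values. BAX (ENSG00000087088, hg38 chr19:48954815-48961798) was at 29.3 and 36.1 CPM in sh-NC and at 23.9 and 19.6 CPM in sh-IRF2BP2, without overlap. Its log2 fold change was -0.59 (SE 0.17) and did not pass the test (adjusted p = 0.0630 by edgeR). BAX was called lower with DESeq2 (adjusted p = 0.0337), and over all alternatives its adjusted p ran from 0.0076 to 0.281. BAK1 (ENSG00000030110, hg38 chr6:33572547-33580293) was at 39.1 and 38.2 CPM in sh-NC and at 41.8 and 35.2 CPM in sh-IRF2BP2, so that the knockdown libraries lay on either side of the controls.

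Among the BH3-only genes, PMAIP1 (ENSG00000141682, hg38 chr18:59899996-59904305), which encodes the MCL1 binder NOXA, had the largest change of the 10 members. It was at 56.4 and 43.5 CPM in sh-NC and at 18.3 and 14.99 CPM in sh-IRF2BP2. It fell by 1.58 on the log2 scale (SE 0.18, adjusted p = 0.00275 by edgeR), to 33.4% of sh-NC, and the groups stood well apart.

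The other BH3-only genes were not called in J.gamma1. BCL2L11, whose product BIM is a main killer of unneeded lymphocytes, was at 60.5 and 53.5 CPM in sh-NC and 68.4 and 64.3 CPM in sh-IRF2BP2 (log2 fold change 0.22, adjusted p = 0.295 by edgeR). BID, which links death receptors to mitochondria, was at 119 and 129 CPM against 144 and 137 CPM (log2 fold change 0.18, adjusted p = 0.359 by edgeR). These genes were higher in each knockdown library than in each control library, by less than the test could call. BBC3, a p53 target, was at 5.64 and 7.09 CPM against 7.08 and 10.01 CPM (log2 fold change 0.42, adjusted p = 0.332 by edgeR). BAD, which is held inactive by survival kinases, was at 32.05 and 36 CPM against 34.3 and 31.0 CPM, with overlapping groups. The antisense gene GPR137 shares 23.7% of BAD's exon bases, and MIR4435-2HG shares 10.8% of those of BCL2L11.

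In mouse T cells, 1 of the 10 members rose in the knockout and 0 fell. The member was Pmaip1, where across all genes 2.68% were called higher and 0.15% lower. At an unadjusted p under 0.05, edgeR gave 2 members higher and 0 lower, and DESeq2 called Pmaip1 alone. The median log2 fold change of the 10 members was 0.06, beside -0.02 over all genes. The groups did not overlap for 3 members, Bax, Pmaip1 and Bid, beside 36% of all genes tested.

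**Figure D2:**
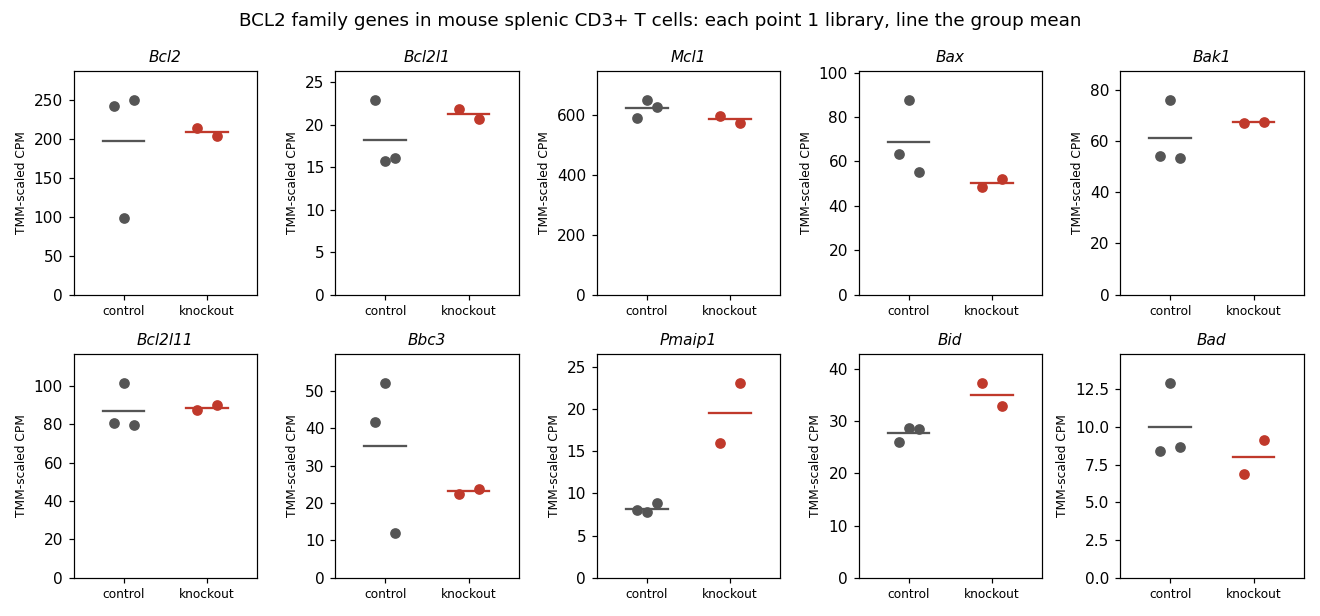
Level of each BCL2 family gene in sorted mouse CD3+ T cells, in TMM-scaled CPM on axes starting at 0, with a point for each of the 3 control (grey) and 2 knockout (red) libraries and a line at the group mean. Pmaip1 was higher in the 2 knockout libraries, Bcl2 was low in 1 control library and Bbc3 was low in another.

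Pmaip1 (ENSMUSG00000024521) was at 7.99, 7.80 and 8.82 CPM in the controls and at 16.0 and 23.1 CPM in the knockouts. The controls lay close together, and each knockout library was above all of them. Pmaip1 rose by 1.25 on the log2 scale (SE 0.22, adjusted p = 0.0402 by edgeR), to 238% of the control level. The call was lost without control replicate 1 (adjusted p = 0.156), without control replicate 3 (adjusted p = 0.0576), without knockout replicate 1 (adjusted p = 0.128) and without knockout replicate 2 (adjusted p = 0.445), all by edgeR, while the log2 fold change stayed between 0.94 and 1.47.

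Some markers of cell division and of cell types moved with the same groups in the mouse. The summed level of the 10 dividing cell markers was 125 to 274 CPM in the controls and 934 to 1028 CPM in the knockouts, with 10 of 10 higher and 4 called. The summed level of 12 erythroid markers was 598 to 2266 CPM in the controls and 4499 to 6351 CPM in the knockouts, with 12 of 12 higher and 6 called. The 14 T cell markers summed to 5728 to 6556 CPM in the controls and 4289 to 4594 CPM in the knockouts. Only 1 of the 14 was higher in the knockouts and 1 was called lower, with a median log2 fold change of -0.45. The 6 plasma cell markers summed to 338 to 1073 CPM in the controls and 1054 to 1389 CPM in the knockouts, with overlapping groups. B cell and myeloid markers also overlapped between the groups. The part of cell division and of these cell types in the Pmaip1 values was not tested.

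The mouse survival genes were not called. Mcl1 (ENSMUSG00000038612) was at 589, 650 and 628 CPM in the controls and 597 and 574 CPM in the knockouts, with overlapping groups (log2 fold change -0.09, SE 0.13, adjusted p = 0.798 by edgeR). Bcl2 (ENSMUSG00000057329) was at 242, 98.6 and 250 CPM in the controls and 215 and 204 CPM in the knockouts. Control replicate 2 stood apart from the other controls, and without it the log2 fold change turned from 0.09 to -0.22 (adjusted p = 0.383 by edgeR). Bcl2l1 was at 22.9, 15.8 and 16.1 CPM in the controls and 21.8 and 20.6 CPM in the knockouts (log2 fold change 0.22, adjusted p = 0.701 by edgeR).

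Of the mouse effectors, Bax was at 63.1, 87.7 and 55.4 CPM in the controls and 48.6 and 52.2 CPM in the knockouts, below every control (log2 fold change -0.45, adjusted p = 0.363 by edgeR). Bak1 was at 54.1, 76.0 and 53.4 CPM against 67.1 and 67.5 CPM, inside the range of the controls.

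The mouse BH3-only genes besides Pmaip1 were not called either. Bid was at 26.1, 28.6 and 28.5 CPM in the controls and 37.3 and 32.9 CPM in the knockouts, without overlap (log2 fold change 0.34, adjusted p = 0.301 by edgeR), and 17.7% of its exon bases are shared with the antisense gene Bcl2l13. Bbc3 was at 41.6, 52.1 and 12.1 CPM in the controls and 22.5 and 23.9 CPM in the knockouts. Control replicate 3 lay below the knockouts and the other controls above them, and the log2 fold change of -0.61 (adjusted p = 0.651 by edgeR) became -1.02 without that library (adjusted p = 0.0420). Bcl2l11 ran from 79.5 to 101 CPM in the controls and was at 87.2 and 90.0 CPM in the knockouts. Bad was at 8.39, 12.9 and 8.63 CPM against 6.89 and 9.10 CPM, with overlapping groups. The antisense gene Gpr137 shares 20.5% of Bad's exon bases. Among the mouse effectors, an antisense Ggnbp1 gene shares 18.2% of those of Bak1, and Gm45808 on the same strand shares 12.2% of those of Bax.

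Since a call in one table and not in the other does not show that the contrasts differ, the difference itself was tested over the 9900 genes that passed the filter in each table. The contrasts differed for 2 of the 10 members, PMAIP1 and MCL1, beside 10.9% of all these genes. PMAIP1 was 2.84 higher on the log2 scale in the mouse contrast than in the J.gamma1 contrast (SE 0.30, adjusted p = 0.00105 by edgeR), with the gene called in opposite directions. It stayed called with each library left out, with a highest adjusted p of 0.0107. MCL1 differed by 0.72 (SE 0.16, adjusted p = 0.0217 by edgeR), and this call was lost in all fits that left a library out except those without control replicate 2 or 3, with adjusted p up to 0.109. The difference for BCL2 was 1.23 but had an SE of 0.51 and was not called (adjusted p = 0.162 by edgeR), and without control replicate 2 it was 0.93 (adjusted p = 0.0304). Calls also appeared for BBC3 without control replicate 3 (difference -1.44, adjusted p = 0.0167 by edgeR) and for BCL2L1 without control replicate 1 (difference 0.70, adjusted p = 0.0393 by edgeR). Knockdown and knockout differ in degree, species and cell state, which cannot be told apart here.

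**Figure D3:**
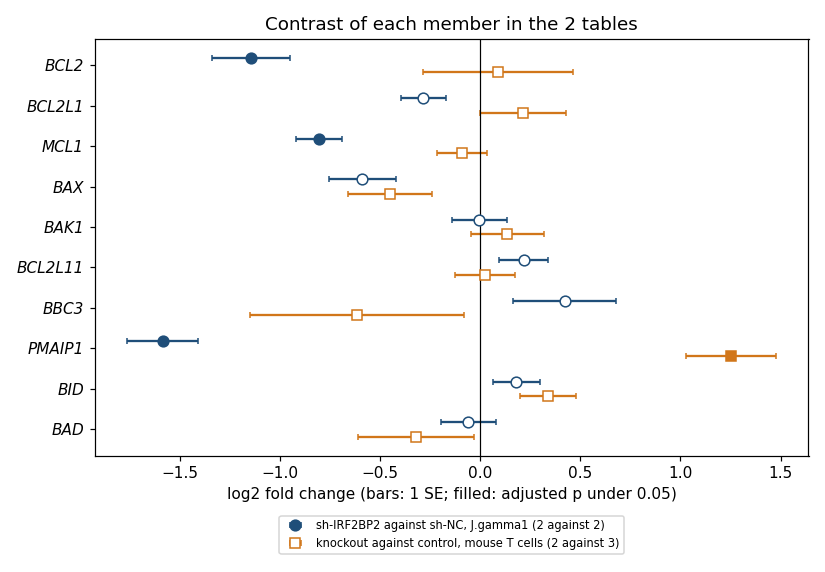
Log2 fold change of each member in J.gamma1 cells (blue circles, 2 libraries against 2) and in mouse T cells (orange squares, 2 against 3), with bars of 1 SE and filled symbols for an adjusted p under 0.05. PMAIP1 is filled on either side of 0, at -1.58 and 1.25, while BCL2 and MCL1 are filled only for J.gamma1.

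Levels of different genes were compared per length, as TPM computed from counts and merged exon length. In the sh-NC libraries the order from the top was BCL2L1, MCL1, BID, PMAIP1, BAD, BAK1, BAX, BCL2L11, BCL2 and BBC3, from 127 ± 5.8 TPM (SD, n = 2) to 7.74 ± 1.5 TPM (SD, n = 2). The library ranges overlapped for 2 of the 9 neighbouring pairs, MCL1 with BID and PMAIP1 with BAD. With the length of the longest transcript instead, 3 members kept their place and BID led at 141 TPM, so the upper part of the order depends on the length used.

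In the mouse control libraries Mcl1 stood alone at 502 ± 37 TPM (SD, n = 3), followed by Bax at 119 ± 22 TPM (SD, n = 3). Pmaip1 was last at 8.31 ± 1.1 TPM (SD, n = 3). The ranges of 5 of the 9 neighbouring pairs overlapped. Mcl1 made up 84.6% to 93.1% of the summed TPM of the 3 survival genes in the mouse controls and 86.1% and 86.2% in the knockouts. MCL1 made up 43.0% and 44.7% of that sum in sh-NC and 35.8% and 37.3% in sh-IRF2BP2, and BCL2L1 made up 49.2% and 49.8% in sh-NC and 59.5% and 58.7% in sh-IRF2BP2. The summed TPM of the survival genes went from 250 and 264 in sh-NC to 179 and 180 in sh-IRF2BP2. BCL2L1 itself had a mean of 127 TPM in sh-NC and 106 TPM in sh-IRF2BP2, so its share rose without a rise in its level. The summed TPM of the BH3-only genes was 311 and 317 in sh-NC and 283 and 275 in sh-IRF2BP2. These shares rest on merged exon length, are descriptions of RNA and were not tested.

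**Figure D4:**
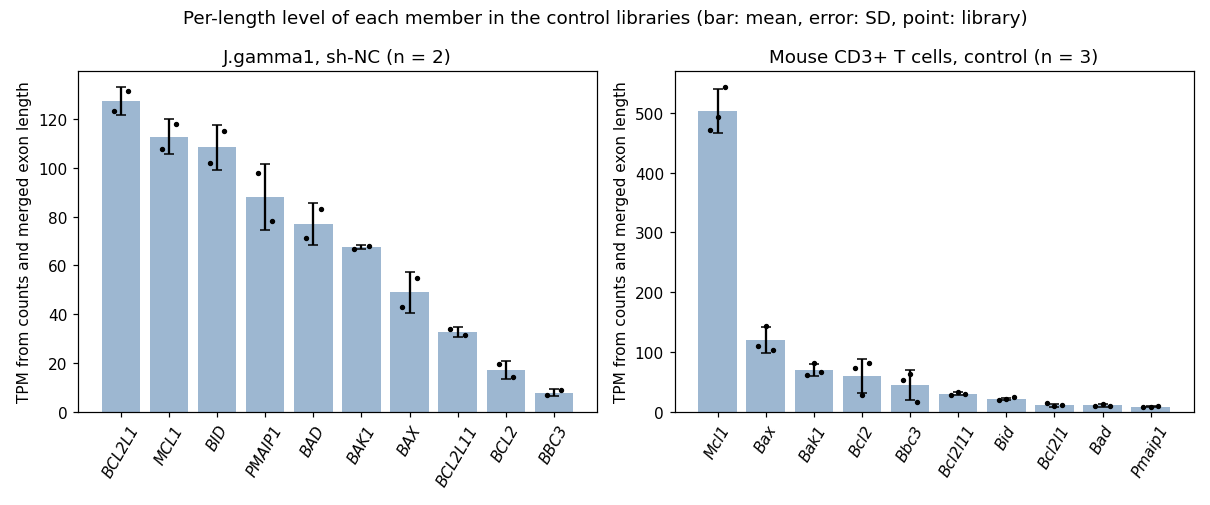
Per-length level (TPM) of each member in the control libraries of J.gamma1 (left, n = 2) and of mouse CD3+ T cells (right, n = 3), ordered by mean, with bars for the mean, SD as error and a point for each library. In J.gamma1 several members lie near BCL2L1 and MCL1, while in the mouse Mcl1 lies at 502 TPM and the next member at 119 TPM.

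Genes around the family were counted from lists written by symbol. For comparison, edgeR called 5.83% of all genes higher and 5.32% lower in J.gamma1, and 2.68% higher and 0.15% lower in the mouse. The median log2 fold change over all genes was 0.01 in J.gamma1 and -0.02 in the mouse. Of 13 other BCL2 family genes, 9 were tested in each table and 0 were called by edgeR or DESeq2, with 1 higher and 0 lower at an unadjusted p under 0.05 in each table. Their median log2 fold change was -0.14 in J.gamma1 and 0.00 in the mouse. Without sh-NC replicate 2, edgeR called 2 of them in J.gamma1.

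Of 17 genes listed downstream of the family, among them caspases and caspase inhibitors, 3 rose and 1 fell in J.gamma1. The median log2 fold change of this list was 0.00. The caspase inhibitors BIRC3 (log2 fold change 0.75, adjusted p = 0.0163) and XIAP (log2 fold change 0.61, adjusted p = 0.0152) were among those that rose, and CASP6 fell by 0.54 (adjusted p = 0.0462), all by edgeR. The calls in this list numbered 1 without sh-IRF2BP2 replicate 1, 0 without sh-IRF2BP2 replicate 2 and 7 without sh-NC replicate 1.

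Of 20 genes that act directly on the family, 3 rose and 2 fell in J.gamma1, with a median log2 fold change of 0.11. FOXO1, a transcription factor that can induce BH3-only genes, was at 11.6 ± 0.93 CPM (SD, n = 2) in sh-NC and 27.7 ± 4.6 CPM (SD, n = 2) in sh-IRF2BP2, a rise of 1.26 on the log2 scale (adjusted p = 0.00577 by edgeR). USP9X, which removes ubiquitin from MCL1, rose by 0.60 (adjusted p = 0.0254), and BTRC, part of a ubiquitin ligase, rose by 0.53 (adjusted p = 0.0473). PIM1, a survival kinase, fell by 0.96 (adjusted p = 0.0184), and MYC fell by 0.74 (adjusted p = 0.0397). FOXO1 was called with each library left out, while the list of 5 calls held 3 without sh-IRF2BP2 replicate 1 and 1 without sh-IRF2BP2 replicate 2. In the mouse 1 of 20 rose, the cell cycle factor E2f1 (log2 fold change 1.44, adjusted p = 0.0413 by edgeR), with a median of -0.07, and it was still called in 1 of the 5 fits that left a library out. The dividing cell and erythroid markers above moved with the same groups.

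Of 20 p53 target genes outside the family, 3 rose and 0 fell in J.gamma1, beside 5.83% of all genes called higher. The median log2 fold change of the list was 0.12, beside 0.01 over all genes. DESeq2 called 5 higher and 0 lower, and 0 were lower at an unadjusted p under 0.05. TP53INP1, which promotes p53-dependent death, was at 12.6 ± 3.3 CPM (SD, n = 2) in sh-NC and 52.0 ± 15 CPM (SD, n = 2) in sh-IRF2BP2, a rise of 2.05 on the log2 scale (adjusted p = 0.00316 by edgeR). ZMAT3 rose by 0.91 (adjusted p = 0.0188), and MDM2, the ubiquitin ligase of p53, rose by 0.65 (adjusted p = 0.0198). TP53INP1 and ZMAT3 were called with each library left out and MDM2 in 3 of 4 such fits, and the list held 5 calls when a library with sh-NC was left out, whether replicate 1 or replicate 2. Of the p53 targets within the family, PMAIP1 fell, BAX was at a log2 fold change of -0.59 and BBC3 at 0.42. BAX and BBC3 were not called, and no test compared these members with the list. Whether p53 was active in this line was not tested. In the mouse 19 of these targets were tested and 0 were called by edgeR or DESeq2, with 1 higher and 2 lower at an unadjusted p under 0.05.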

How the data were processed

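RNA was sequenced from J.gamma1 cells (2 sh-NC and 2 sh-IRF2BP2 libraries) and sorted mouse splenic CD3+ T cells (2 knockout and 3 control libraries). The values deposited by the authors were raw counts, 1 whole number for each Ensembl gene in each library, neither normalized nor pooled. Reads were aligned with HISAT2 2.2.0 and assembled with StringTie, and the submitters' processing notes name hg38 and mm10. How counts were made from StringTie output, and whether strand was used, is not given in the sources used here.

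Identifiers were named from GENCODE 44 and M21, and annotated rows held 98% (human) and 99.8% (mouse) of the counts. Each table was filtered with filterByExpr, scaled by TMM and fitted with edgeR 4.0.16 (glmQLFit, glmQLFTest) in R 4.3.3, with condition as the sole term. A joint fit over symbol-matched genes tested the difference between the contrasts. The p-values were adjusted over all genes by Benjamini-Hochberg, and SE is the log2 fold change divided by the root of F. The labels do not say that replicates came from separate cultures or separate mice, so p-values measure the spread between these libraries. Replicates differed beyond sampling noise. Total counts were 26648204 to 31120236 (human) and 16668577 to 37177523 (mouse), and the limit of 3 counts for a gene at 0 covers counting error only.

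The members and lists were chosen with earlier results of these data known. Genes named were all members, IRF2BP2 and, from each list, up to 3 called genes in each direction with the largest fold. A result of the downstream list is left out here. Mouse symbols were the human ones in mouse case, except Trp53, Trp73, Trp53inp1 and Cd8b1. Results were recomputed with DESeq2 1.42.0, other scalings (RLE, upper quartile), other count filters, all rows, a fold threshold, the replicate block and each library left out. The same alternatives for the lists were chosen after seeing the data. Leaving a library out of a group of 2 leaves a lone library, which is assumed to vary like the other group. Sequences come from hg38.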

Additional observations from a re-analysis of the deposited data

Results flagged for a closer look

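The contrasts of PMAIP1 in the mouse and in J.gamma1 differed by 2.84 on the log2 scale (SE 0.30, adjusted p = 0.00105 by edgeR), with log2 fold changes of -1.58 in J.gamma1 and 1.25 in mouse T cells. The gene was lower in 2 of 2 sh-IRF2BP2 libraries than in each sh-NC library and higher in 2 of 2 knockout libraries than in each control library. The contrasts of MCL1 differed by 0.72 (SE 0.16, adjusted p = 0.0217 by edgeR), with log2 fold changes of -0.80 in J.gamma1 and -0.09 in mouse T cells, and the adjusted p ran from 0.00985 to 0.109 with each library left out. The groups held 2 or 3 libraries, so single libraries were not tested as outliers.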

How the results depend on the processing

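Of 350 log2 fold changes of the members under the alternatives, 315 kept their direction and their side of the threshold, 12 gained a call, 12 lost it and 11 changed sign. The members called in J.gamma1 numbered 3 or 4 throughout, the fourth being BAX. The members called in mouse T cells numbered 0 to 1 with each library left out. The members whose contrasts differed numbered 4 with the replicate block, where BCL2 (1.57, adjusted p = 0.034) and BBC3 (-1.42, adjusted p = 0.00824) joined by edgeR, and 1 to 3 with each library left out. The cause was not tested. With each library left out, signs changed for BAK1 (-0.16 to 0.11) and BAD (-0.16 to 0.027) in J.gamma1, for Bcl2 (-0.22 to 0.30) and Bcl2l11 (-0.044 to 0.165) in the mouse, and for BAX in the difference between contrasts (-0.019 to 0.37). Of the 10 members, the places kept in the order of levels numbered 3 (J.gamma1) and 8 (mouse) with the longest transcript, and 8 to 10 (J.gamma1) and 8 (mouse) with each library left out.

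The replicate numbers were shared by 2 libraries of each group, which is too few to show pairing. Deviations of same-numbered libraries correlated at 0.225 in J.gamma1 and at 0.151 and -0.161 in the mouse. With the replicate block, BAX joined the calls in J.gamma1 (4 members, with all genes at 1884 higher and 1663 lower against 923 and 841). In the mouse Bbc3 was called (-1.01) in place of Pmaip1 (1.28, adjusted p = 0.0598 by edgeR), and Bcl2l11 was at -0.028. The calls over all mouse genes, 412 higher and 23 lower, were 6 and 1 without control replicate 1, 47 and 3 without knockout replicate 1 and 9 and 1 without knockout replicate 2. DESeq2 gave 958 higher and 253 lower there. A filter of 1 count in any library left 319 higher and 396 lower in J.gamma1.

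For the lists, the calls in J.gamma1 were 0 among other BCL2 family genes, 4 downstream, 5 among regulators and 3 among p53 targets. With the replicate block they were 2, 7, 6 and 6, and the filter of 1 count in any library gave 0 downstream, 2 among regulators and 1 among p53 targets. DESeq2 gave 5 p53 targets. With each library left out they ran from 0 to 2, 0 to 7, 1 to 6 and 2 to 5 in the same order. In the mouse, 1 downstream gene and 1 regulator were called. DESeq2 gave 3 downstream genes, either count filter 2, and the replicate block 2 downstream genes and 0 regulators. With each library left out, 0 to 2 downstream genes and 0 to 1 regulators were called.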
